A study of Mus musculus with 38 samples.

Results

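RNA polymerases copy DNA into RNA, and eukaryotic nuclei hold 3 of them. RNA polymerase I (Pol I) makes the ribosomal RNA precursor, RNA polymerase II (Pol II) makes messenger RNA, and RNA polymerase III (Pol III) makes transfer RNA and other short RNAs. Each enzyme is a large complex around a catalytic core of its largest subunits, and a group of small subunits is common to all of them. The full-grown mouse oocyte stores messenger RNA, stops transcription and is then fertilized, and transcription from the embryonic genome resumes at the one-cell and two-cell stages, so new polymerase in this window has to come from the translation of stored or newly made messages.

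The genes described here are the protein-coding rows of the deposited expression table whose symbol begins with Polr1, Polr2 or Polr3 followed by a letter. There were 28 of them among 23125 genes. They were 7 subunits used by Pol II only, 5 subunits shared by all 3 enzymes (also named Polr2), 2 shared by Pol I and Pol III (Polr1c and Polr1d), 3 of Pol I only, 10 of Pol III only, and Polr2m, a Pol II-associated protein that is not a core subunit. Subunits of Pol I and Pol III with other symbols, such as Znrd1 and Twistnb, were counted separately with the other genes of the pathway.

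Messages were sequenced from sucrose gradients of ICR mouse oocytes and embryos, with 3 libraries for each stage and fraction. The stages were the germinal vesicle oocyte held in prophase (GV), the oocyte matured in vitro to metaphase II (MII), the zygote obtained after mating, the zygote arrested in M-phase (zygote M), the two-cell embryo and the two-cell embryo arrested in M-phase (two-cell M). Both M-phase embryo groups had received 10 µM nocodazole, a drug that depolymerises microtubules, while GV, MII, zygote and two-cell groups had not, so that in embryos M-phase and the drug cannot be told apart. All cells came from females of at least 6 weeks stimulated with gonadotropin, each library was a pool of cells, and nothing in the labels describes the pools of one stage as separate animals, so the p-values measure only the spread between these libraries. For each gradient 5 of 10 fractions were pooled as the polysome sample, where messages carry several ribosomes, and 5 as the non-polysome sample. Values are FPKM, fragments per kilobase of transcript scaled to the mapped fragments of the library, which makes each level a share of its own library. Fewer cells and less RNA per cell cannot be told apart from such values, nor can a change in the total amount of polysomal RNA.

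The sum of FPKM over all genes ran from 88982 to 247361 over the 36 libraries, highest in the two-cell M non-polysome group (207391 to 247361), and read depth is unknown because the table holds no counts. Every library has a smallest value of 0.01, which is treated here as a floor. The share of genes at that floor ran from 26.2 to 27.3% in zygote polysomes, from 47.9 to 58.7% in two-cell M polysomes and from 59.9 to 63.1% in two-cell M non-polysome libraries, and its part in the changes at these stages was not tested. Oocyte markers were all detected: the summed level of 10 genes such as Gdf9 and Zp3 ran from 5644 to 6742 FPKM in GV polysomes and from 53.7 to 231.5 in two-cell M polysomes. In polysomes 7 two-cell embryo markers, such as Zscan4c, summed to 54.3 to 91.7 FPKM in two-cell embryos. Their sum was 9.49 to 73.1 in two-cell M, which overlapped the 25.0 to 55.2 of GV. In non-polysome libraries it was 255 to 450 in two-cell embryos and 21.2 to 27.4 in GV. Of 9 cumulus and granulosa markers in the table none reached the minimum for testing, and their summed level in polysomes stayed between 0.09 and 5.16 FPKM. Blood markers, chiefly globins, summed to at most 1.33 FPKM in polysomes up to zygote M and to between 24.4 and 83.7 in the two-cell and two-cell M groups. Oviduct epithelium markers summed to at most 31.2 FPKM in polysomes, the highest being in two-cell embryos, and sperm markers to at most 6.33. In the non-polysome libraries the cumulus and granulosa sum reached 23.6 FPKM in MII and 52.7 in two-cell embryos, the blood sum 162 and the oviduct sum 24.4, both in two-cell embryos. The part of these cells in the polymerase values was not tested.

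A minimum of 0.1 FPKM, as a geometric mean over all 36 libraries, left 20 of the 28 polymerase genes and 7967 genes in all for testing. All 5 shared subunits, both subunits shared by Pol I and Pol III, and 6 of 7 Pol II subunits passed, against 1 of 3 for Pol I and 5 of 10 for Pol III. The 8 that did not pass included the largest subunits of Pol I and Pol II, Polr1a (geometric mean 0.053 FPKM) and Polr2a (0.036 FPKM, at the floor in 12 libraries and never above 0.679). Polr2a carries the C-terminal repeat domain that coordinates transcription with RNA processing. The others were Polr1b (0.059), Polr3b (0.021), Polr3c (0.055), Polr3e (0.028), Polr3g (0.043) and its paralog Polr3gl (0.014), the last being at the floor in 19 of 36 libraries. For these genes only ranges are given: the highest value in any library was 1.33 FPKM, for Polr1a in a two-cell M non-polysome library.

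Levels differed widely among subunits that enter one enzyme in equal number. Polr2j had the highest geometric mean, 49.7 FPKM, followed by Polr2e (37.3), Polr2l (29.4), Polr2i (26.1), Polr2g (25.8), Polr2d (21.4) and Polr2c (16.9), while the second largest Pol II subunit, Polr2b, had 0.170 FPKM. These levels are already divided by transcript length, yet they followed it. Over the 28 genes the log2 level fell with log2 transcript length (Pearson r = -0.69, Spearman rho = -0.71), and over 15913 protein-coding genes with a length the relation was weaker (r = -0.228). All 6 polymerase genes with transcripts of up to 1000 bases passed the minimum, and neither of the 2 with transcripts over 6000 bases did; among all protein-coding genes 48.1% and 21.3% of these classes passed. Libraries of this kind are primed from the poly(A) tail, and whether recovery of long messages plays a part was not tested. Polr2k, the shortest at 489 bases, went against the trend with 0.483 FPKM.

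**Figure D1:**
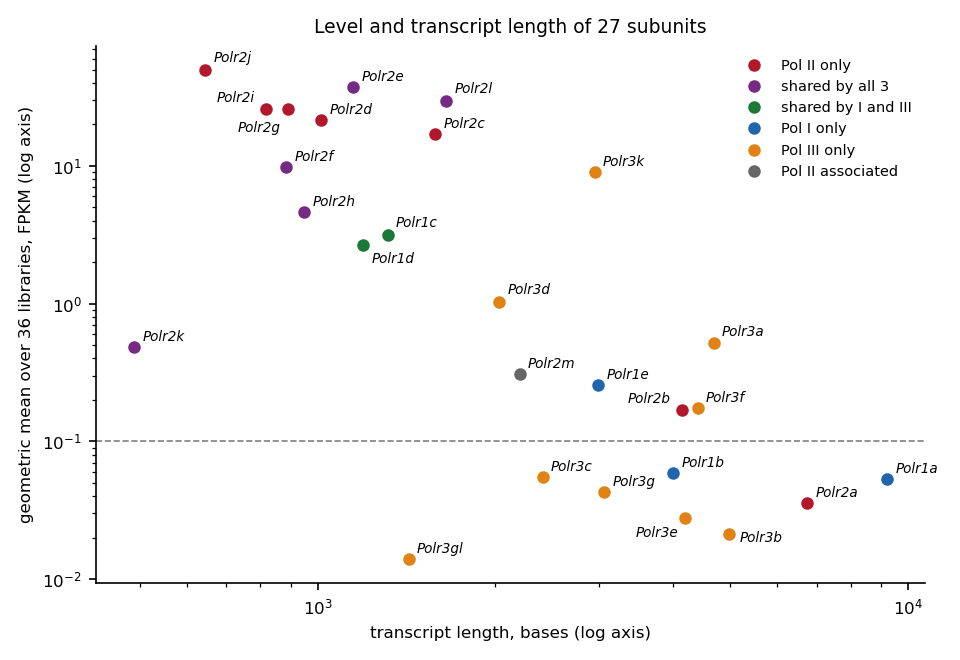
Geometric mean level over the 36 libraries (FPKM, log axis) of 27 of the polymerase genes against the length of its principal transcript in bases (log axis), coloured by the enzyme that uses it. The dashed line is the minimum of 0.1 FPKM for testing, which 8 genes, among them Polr1a, Polr2a and Polr3b, did not reach.

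Several of these genes share sequence with another locus, which bears on what their values measure. Polr2c (chr8:94857450-94873535 in GRCm38, with gene bounds here and below from GENCODE M21) encodes a subunit of the assembly platform of Pol II. Its transcript aligned over 830 bases at 97.7% identity with Gm11993, a processed pseudogene at another locus, which is listed with a geometric mean of 234 FPKM. In the 36 libraries the level of Gm11993 was 7.93 to 17.3 times that of Polr2c, with a median of 14.2, while Polr2c itself ranged over 44.3-fold. On the log2 scale the levels of both had r = 0.99 over all libraries. Reads of Polr2c and of this copy can therefore not be told apart in the deposited table, and every Polr2c value below is uncertain in that respect. A second group of genes overlaps a neighbour on the opposite strand, and the library kit did not mark the strand: Polr2i shares 325 of its 1212 exon bases with Tbcb, Polr2j shares 15.9% of its exon bases with Lrwd1 and Polr2c 18.1% with Dok4. The level of Tbcb was 0.069 to 1.05 times that of Polr2i, that of Lrwd1 at most 1.465 times that of Polr2j, and that of Dok4 reached 8.996 times that of Polr2c in a polysome library. On the log2 scale Tbcb and Polr2i had r = 0.83 over all libraries, Lrwd1 and Polr2j -0.13, and Dok4 and Polr2c 0.14. In polysome libraries alone r was 0.80, 0.05 and 0.48 for these pairs. The Spearman rho of Dok4 and Polr2c in polysomes was 0.76, and the part of Dok4 reads in the Polr2c values was not tested. The bases shared with Tbcb make up 39.7% of the principal Polr2i transcript. The part of Tbcb reads in the Polr2i values was not tested. Copies of Polr2h, Polr2k and Polr2l with at least 90% identity over 200 bases or more also exist in the genome annotation. The Polr2h copy, Gm7511, aligned over 445 bases at 98.0% identity and has no listed level. A second Polr2c copy, AC133968.1, aligned over 503 bases at 98.8% identity and has none either. The part of these copies in the Polr2h and Polr2c values was not tested. Copies of Polr2k and Polr2l that have a listed level stayed at or below 4.5 FPKM.

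**Figure D2:**
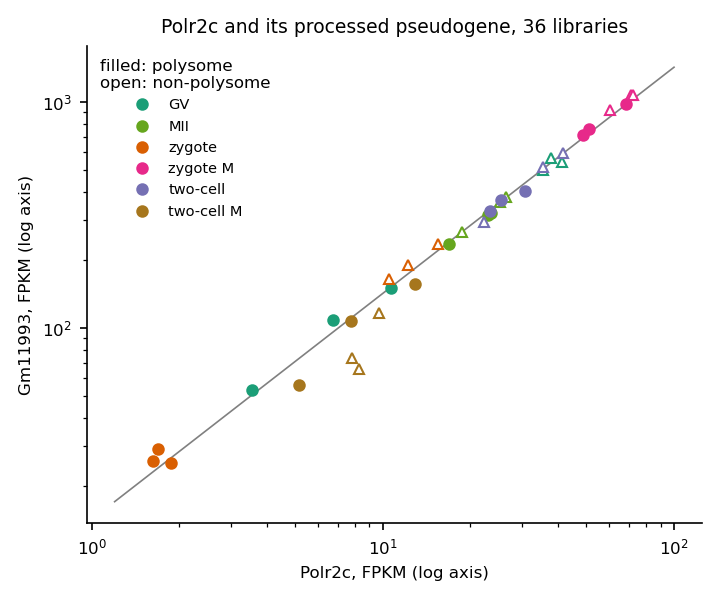
Level of the processed pseudogene Gm11993 against that of Polr2c in each of the 36 libraries (FPKM, both axes log), coloured by stage, with polysome libraries filled and non-polysome libraries open. The line is the median ratio of 14.2, and the libraries lie along it from zygote polysomes at the lower end to zygote M at the upper end.

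In polysomes a stage effect over the 6 groups passed the moderated F-test for 14 of the 20 subunits tested, beside 62.9% of all genes tested. The other 6 included Polr1c (adjusted p = 0.0768) and Polr2m (0.409). The stage with the highest polysome level was two-cell M for 9 subunits, MII for 5 and GV, zygote and zygote M for 2 each. Between one stage and the next, 28 changes passed the call rule, an adjusted p under 0.05 with a change of more than 2-fold, and they fell on 13 subunits. Of all gene and step pairs 11.8% passed it. Consecutive steps share the libraries of the stage between them, so a high or low middle stage enters 2 steps at once. The median standard error of a log2 fold change was 0.68 for the subunits and 1.31 for all genes, so that changes of a given size passed more readily among the subunits. The fit held 1 spread per gene for both fractions, so these errors are not those of polysomes alone. The replicate SD (log2 scale) had a median over genes tested of 1.19 in polysomes and 1.88 in non-polysomes. For Polr1e it was 0.89 and 3.40, and for Polr2c 0.46 and 0.27.

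**Figure D3:**
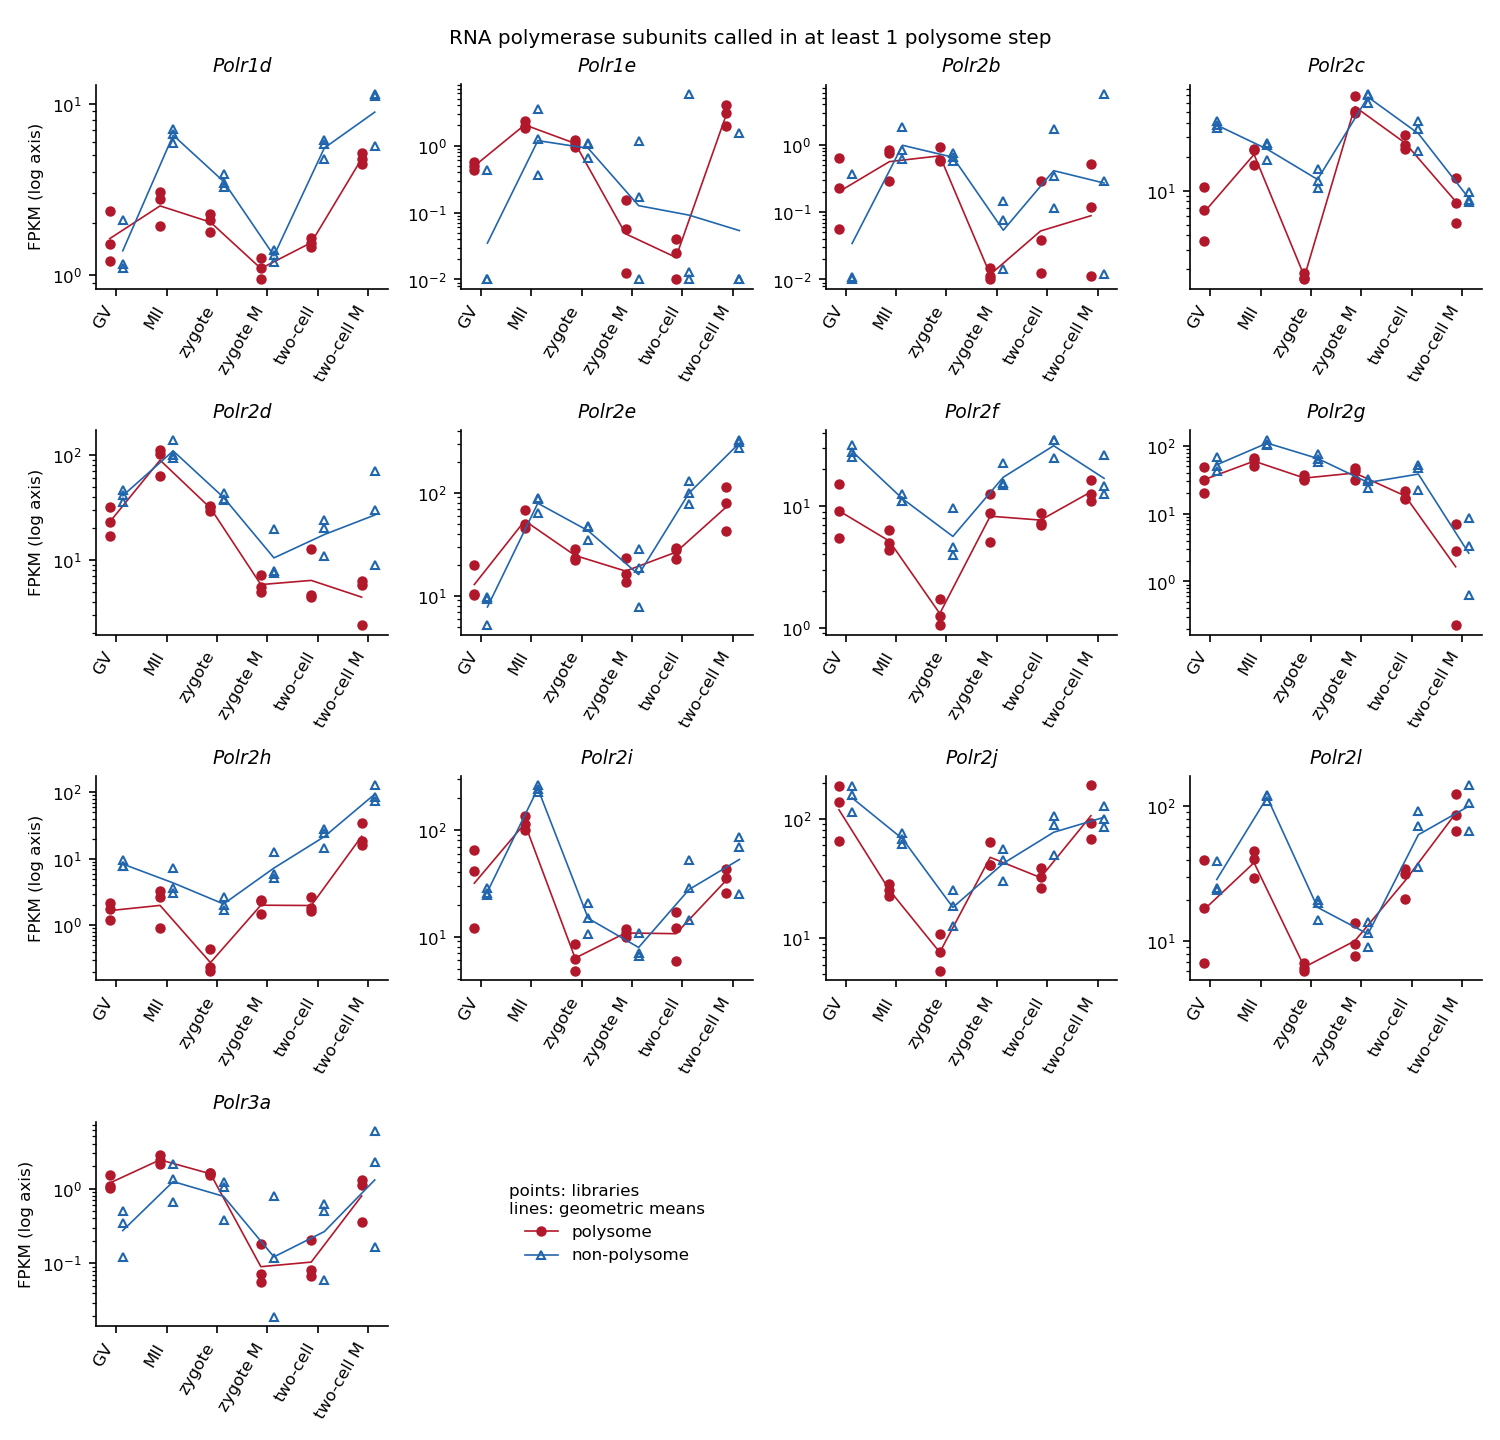
FPKM (log axis) of the 13 subunits called in at least 1 step between polysome stages, with polysome libraries as filled red circles, non-polysome libraries as open blue triangles and lines through the geometric means of 3 libraries. Polr2c, Polr2f, Polr2h and Polr2j have their lowest polysome level in zygotes, and Polr2i has its highest in MII.

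From GV to MII, 5 of 20 subunits were called in polysomes, 4 higher and 1 lower, beside 6.11% of all genes, of which 3.36% rose and 2.75% fell. Values of 8 subunits in MII lay entirely above GV and of 1 entirely below, beside 27.3% and 20.2% of all genes. On the log2 scale the subunits had a median change of 0.78 and all genes one of 0.18. The same 3 GV libraries enter all of these changes. In GV library C the subunits had a median deviation from the group mean of -0.30, and 6 of 20 lay above that mean. In library B the median was 0.45, with 15 of 20 above, and in library A 0.07. For all genes the medians in C, B and A were 0.06, -0.06 and 0.10. Polr2i, a small Pol II subunit that contributes to start site selection and transcriptional fidelity (chr7:30231948-30233390), read 40.9, 64.3 and 12.1 FPKM in the 3 GV polysome libraries and 114, 134 and 99.6 in MII. The groups did not overlap, and GV library C lay well below the others. The rise was 1.86 ± 0.54 (log2 fold change ± SE, adjusted p = 0.0357). Without that GV library it was 1.17 (adjusted p = 0.268), and the call held in 1 of the 6 fits that left out a library. Over the later stages Polr2i read 6.1, 4.75 and 8.56 FPKM in zygotes, 10.8, 11.9 and 9.87 in zygote M, 12.1, 16.9 and 5.88 in two-cell embryos and 42.7, 25.7 and 35.2 in two-cell M. All 15 polysome libraries of the other stages thus lay below the lowest MII library.

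Polr2e, a shared subunit that contacts the incoming DNA (chr10:80035949-80039795), rose by 2.06 ± 0.43 (adjusted p = 0.00222), from 10.4, 19.9 and 10.2 FPKM in GV to 68.5, 45.2 and 49.4 in MII. Polr2d, which with Polr2g forms the stalk of Pol II, rose by 1.96 ± 0.57 (adjusted p = 0.035), from 16.8, 31.6 and 22.8 to 62.6, 102 and 113 FPKM. Without MII library B or C, or GV library A or C, the Polr2d change was not called, at an adjusted p of up to 0.152. Polr2c went from 6.74, 10.7 and 3.55 FPKM to 16.9, 23 and 23.5, a change of 1.72 ± 0.40 (adjusted p = 0.00736), and was lost without the lowest GV library (adjusted p = 0.0684). Polr2j, the partner of Polr2c in the assembly platform (chr5:136116631-136122947), was the only subunit called lower. It read 138, 186 and 64.8 FPKM in GV and 22.6, 28.5 and 25.1 in MII, with no overlap, and fell by 2.23 on the log2 scale (SE 0.42, adjusted p = 0.000909).

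From MII to the zygote, 6 of 20 subunits were called, all lower, beside 4.57% of all genes, 3.54% lower and 1.03% higher. The median was -0.88 for the subunits and -0.09 for all genes. Values of 13 subunits in zygotes lay entirely below MII and of 2 entirely above, beside 30.9% and 25.3% of all genes (56.2% in either direction). The largest change was that of Polr2i, which fell by 4.20 (SE 0.54, adjusted p = 4.41e-06) and was called in all 6 fits without 1 library. Polr2c fell by 3.60 (SE 0.40, adjusted p = 4.54e-07), to 1.87, 1.63 and 1.69 FPKM in the 3 zygote libraries. Those 3 zygote libraries differed little from each other and sat below every other polysome library for Polr2c.

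The remaining 4 were Polr2j and 3 of the 5 shared subunits. Polr2h (chr16:20717665-20722267), a shared subunit of the core, read 0.91, 2.69 and 3.25 FPKM in MII and 0.436, 0.233 and 0.206 in zygotes, and fell by 2.86 (SE 0.56, adjusted p = 0.00123). Polr2l (chr7:141471860-141475132), a shared subunit needed to assemble the core, read 40.4, 46.6 and 29.3 in MII and 6.34, 6.92 and 5.99 in zygotes, and fell by 2.57 (SE 0.48, adjusted p = 0.000763). Polr2f (chr15:79141009-79151774), a shared subunit near the base of the clamp, read 4.36, 6.3 and 4.97 in MII and 1.25, 1.05 and 1.71 in zygotes. Polr2f fell by 1.97 (SE 0.46, adjusted p = 0.00781) and Polr2j by 1.73 (SE 0.42, adjusted p = 0.0118), to 7.73, 5.33 and 10.8 FPKM. In all 4 the zygote libraries lay below all MII libraries. The Polr2f and Polr2j calls were each lost without MII library B or zygote library C, at adjusted p up to 0.0572 and 0.105. Of the 8 tested subunits that Pol II does not use, 0 were called in this step, beside 4.57% of all genes. With so few genes this count does not set them apart from other genes.

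From the zygote to zygote M, 7 of 20 subunits were called, 4 higher and 3 lower, beside 5.75% of all genes (3.24% rising and 2.51% falling). The median was -0.46 for the subunits and -0.43 for all genes. The 4 that rose were among those that had fallen into the zygote, and both steps rest on the same zygote libraries. Polr2c rose by 5.00 ± 0.40 (adjusted p = 1.15e-09), to 50.9, 68.5 and 48.9 FPKM, above every other polysome library. Polr2h rose by 2.87 ± 0.56 (adjusted p = 0.00102), to 2.32, 1.47 and 2.39 FPKM. With 1 added to each FPKM the Polr2h rise was 1.23, and after quantile normalization 4.72, and it was called in both.

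Polr2f rose by 2.65 ± 0.46 (adjusted p = 0.000284), to 8.8, 12.6 and 5.06 FPKM, and Polr2j by 2.64 ± 0.42 (adjusted p = 9.95e-05), to 41, 64.3 and 40.6 FPKM. In each of these 4 genes all zygote M libraries lay above all zygote libraries, and all 4 calls held in the 6 fits without 1 library. Of the 20 subunits 6 lay entirely above zygotes and 8 entirely below, beside 19.4% and 37.2% of all genes. Polr2i read 9.87 to 11.9 FPKM in zygote M, above the 4.75 to 8.56 of zygotes, with a log2 fold change of 0.78 ± 0.54 that was not called (adjusted p = 0.568).

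The 3 that fell were Polr2d, Polr3a and Polr2b. Polr2d fell by 2.42 (SE 0.57, adjusted p = 0.00683), from 29, 31.9 and 32.9 FPKM to 5.49, 7.26 and 4.95, and was called in every fit without 1 library. Its partner in the stalk, Polr2g (chr19:8793127-8798577), had a log2 fold change of 0.25 ± 0.79 (adjusted p = 0.965), from 32.5, 31.6 and 37.3 to 43.2, 31.3 and 47.5 FPKM. The difference between the partners was not tested. Polr3a (chr14:24448696-24487058), the largest subunit of Pol III, went from 1.54, 1.59 and 1.6 FPKM to 0.0716, 0.057 and 0.181. It fell by 4.12 (SE 1.15, adjusted p = 0.0268), held its call in 1 of the 6 fits without 1 library, and fell by 1.23 with 1 added to each FPKM. Polr2b (chr5:77310147-77349324), which forms the active site together with Polr2a, went from 0.601, 0.927 and 0.584 to 0.0112, 0.0148 and 0.01, close to the floor. The size of its change, -5.86 (SE 1.66, adjusted p = 0.0296), depends on that floor: with 0.1 added to each FPKM it was -2.82 (adjusted p = 0.0603), and it was called in none of the 6 fits without 1 library.

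Polr2c, Polr2f and Polr2j carry the same short motif at their start, the core that ETS family factors recognise, CCGGAAG on either strand. Promoters of 250 bases before to 50 bases after the start were taken from RefSeq on GRCm38.p6 and matched 22 of the 28 genes, with 24 promoters. The motif was found in 7 of the 24 promoters, or 31.8% of the 22 genes, and in 8.86% of all 32851 promoters. The percentages for these genes count genes and those for all count promoters, so they are not quite alike. The windows around it, 10 bases on each side, are shown for these 3 genes because they are 3 of the 4 subunits called in both steps around the zygote. They were looked at for that pattern, so the shares are a description. The motif is in capitals and each window is written 5′ to 3′ on the strand of its gene.
Polr2c, chr8:94857457-94857483, plus strand: ccgcgactagCCGGAAGcgccgattgc
Polr2f, chr15:79141298-79141324, plus strand: ccgctgcttcCCGGAAGtaactgcgcc
Polr2j, chr5:136116662-136116688, plus strand: gctgagaaatCCGGAAGtggtcgcgct
The others with the motif were Polr1c and Polr1e, and Polr3b and Polr3g, which did not reach the minimum. Their windows are shown for Polr1c and Polr1e, which were tested and not called in either step. The polysome values of Polr1e in zygotes nevertheless lay entirely above those in zygote M, with a log2 fold change of -4.48 ± 1.94 (adjusted p = 0.22). In Polr1e the motif lies on the opposite strand and reads CTTCCGG.
Polr1c, chr17:46248071-46248097, minus strand: cacttgacgtCCGGAAGtgaaggacgt
Polr1e, chr4:45018624-45018650, plus strand: tagaatgtcaCTTCCGGtttttgagtc
Polr2h, the other subunit called in both steps, does not hold these letters in its promoter window. The CCAAT box was found in 7 of the 22 genes, or 31.8%, and in 37.4% of all promoters, and TATAAA in 2 genes, or 9.09%, and in 8.32% of all promoters. TATAAA was searched on the strand of the gene and the other motifs on both strands, and a match describes the letters only.

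From zygote M to the two-cell embryo 0 of 20 subunits were called by limma, beside 6.19% of all genes (3.31% higher and 2.87% lower), and the median was -0.02 for the subunits and -0.56 for all genes. Values of 2 subunits in two-cell embryos lay entirely above zygote M and of 5 entirely below, beside 11.5% and 22.9% of all genes. At an unadjusted p under 0.05 there were 4 subunits, Polr2c, Polr2l, Polr3d and Polr3f, and other settings gave 0 to 3 calls. Polr2l came nearest, at 1.49 ± 0.48 (adjusted p = 0.0615), from 9.53, 13.5 and 7.79 FPKM to 20.5, 34.2 and 31.5, groups that did not overlap. Polr2c, at 23.3, 30.9 and 25.4 FPKM in two-cell embryos, lay below zygote M with a log2 fold change of -1.07 ± 0.40 (adjusted p = 0.129). Polr2j read 26.1, 32.8 and 38.8 FPKM, also below zygote M in every library, with -0.56 ± 0.42 (adjusted p = 0.562).

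From the two-cell embryo to two-cell M, 10 of 20 subunits were called, 8 higher and 2 lower, while among all genes 36.3% passed, 8.13% rising and 28.1% falling. All genes had a median of -1.17 and the subunits one of 1.64, and quantile normalization moved the median of all genes to 0.22 and the subunits called to 12 higher and 2 lower. Values of 13 subunits lay entirely above the two-cell embryo and of 2 entirely below, beside 15.1% and 28.4% of all genes (43.4% in either direction). The subunits called came from all 3 enzymes. Polr2h rose by 3.46 ± 0.56 (adjusted p = 2.33e-05), from 1.8, 1.65 and 2.65 FPKM to 34.9, 18.3 and 16.3. These are the 3 highest of the 18 polysome values of Polr2h.

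Polr2e and Polr2l, the other shared subunits called, rose by 1.46 ± 0.43 (adjusted p = 0.00896) and 1.65 ± 0.48 (adjusted p = 0.00805). Polr2e read 22.7, 29.3 and 27.9 FPKM in two-cell embryos and 42.4, 115 and 79.3 in two-cell M, and its call was lost without two-cell M library B (adjusted p = 0.0648). Polr2l reached 86.2, 122 and 65.3 FPKM, above all of its other polysome libraries. Polr2j rose by 1.72 ± 0.42 (adjusted p = 0.00232), to 92, 67.7 and 190 FPKM, and Polr2i reached 42.7, 25.7 and 35.2 FPKM, a rise of 1.67 ± 0.54 (adjusted p = 0.0172). Without two-cell library C or two-cell M library A the Polr2i change was not called, at adjusted p up to 0.112.

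Polr1d (chr5:147077050-147111597), which stands in Pol I and Pol III where Polr2j stands in Pol II, rose by 1.63 ± 0.46 (adjusted p = 0.00703). It read 1.64, 1.55 and 1.45 FPKM in two-cell embryos and 4.44, 4.76 and 5.12 in two-cell M, while its GV to zygote M polysome libraries lay between 0.94 and 3.06. Its partner Polr1c, at 5.7, 2.51 and 1.36 FPKM against 18.6, 30.9 and 10.3, had a log2 fold change of 2.75 ± 1.36 that was not called (adjusted p = 0.116). Polr1e (chr4:45018583-45036565), a Pol I subunit involved in initiation and elongation, read 0.0399, 0.01 and 0.0246 FPKM in two-cell embryos and 3.05, 4.09 and 1.95 in two-cell M. Its change of 7.08 ± 1.94 (adjusted p = 0.00549) starts at the floor, and became 4.60 with 0.1 and 1.94 with 1 added to each FPKM, called in both. Polr3a rose by 2.94 ± 1.15 (adjusted p = 0.0458), from 0.205, 0.0819 and 0.0673 to 1.11, 1.3 and 0.353 FPKM. The groups did not overlap, but the call held in 2 of 6 fits without 1 library and not with 1 added to each FPKM (0.74, adjusted p = 0.137).

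The 2 that fell were Polr2g and Polr2c. Polr2g read 16.9, 16.8 and 21.6 FPKM in two-cell embryos and 2.78, 7.18 and 0.226 in two-cell M, and fell by 3.47 (SE 0.79, adjusted p = 0.00111). Without the lowest two-cell M library the change was -2.04 (adjusted p = 0.0146). Polr2c fell by 1.72 (SE 0.40, adjusted p = 0.00155), to 5.15, 7.77 and 12.9 FPKM. Polr2d, the partner of Polr2g, read 4.43, 12.6 and 4.64 in two-cell embryos and 5.78, 2.38 and 6.27 in two-cell M, groups that overlapped, with a change of -0.53 ± 0.57 (adjusted p = 0.491).

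**Figure D4:**
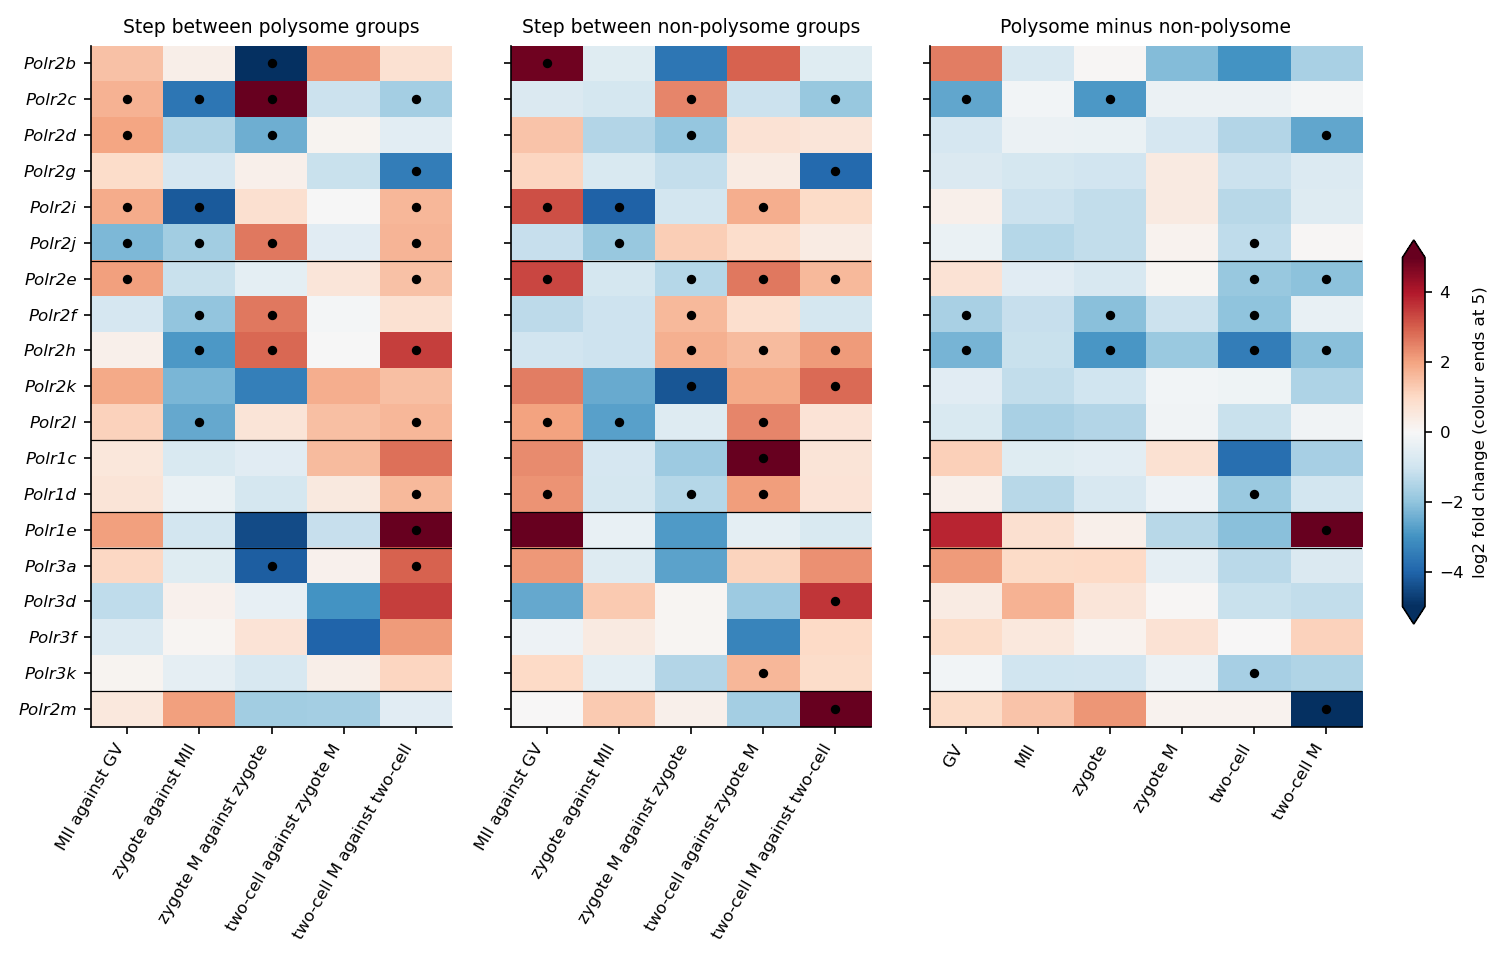
Log2 fold change (colour, ending at 5 in each direction) of 19 of the subunits tested for each step in polysomes, each step in the non-polysome fraction and for polysome minus non-polysome at each stage, with a dot on each call. From the top the blocks are Pol II only, shared by all 3 enzymes, shared by Pol I and Pol III, Pol I only, Pol III only, and Polr2m. In polysomes the step from zygote M to the two-cell embryo holds 0 dots and the step to two-cell M holds 10.

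The study's M-phase and interphase groups let the change into M-phase be compared between meiosis and both mitoses. The divisions were taken as GV to MII, zygote to zygote M and two-cell to two-cell M. Neither GV nor MII had received nocodazole, while both mitotic M-phase groups had. Between meiosis and a mitosis, the kind of division and the drug therefore cannot be told apart. Of the 20 subunits 0 were called in the same direction at all 3, beside 0.0753% of all genes. Polr2e and Polr2i rose at the first and the last and Polr2h at both mitoses, so that 3 were called at 2 divisions in the same direction, beside 1.88% of all genes. Polr2c and Polr2j were called at all 3 in mixed directions, beside 0.816%, and Polr2d and Polr3a at 2 in opposite directions, beside 2.95%. A further 6 were called at 1 division, beside 35.8%, and 7 at 0, beside 58.5%. The difference itself was tested by a contrast of changes. Between zygote M and MII it was called for 9 of 20 subunits, beside 9.51% of all genes, between two-cell M and MII for 5, beside 23.5%, and between two-cell M and zygote M for 9, beside 23.7%. Polr2j had the largest difference between zygote M and MII in units of its error, 4.87 ± 0.60 (adjusted p = 1.54e-06), since it fell in MII and rose in zygote M. For Polr2h the change to two-cell M exceeded that to MII by 3.20 ± 0.79 (adjusted p = 0.00353).

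**Figure D5:**
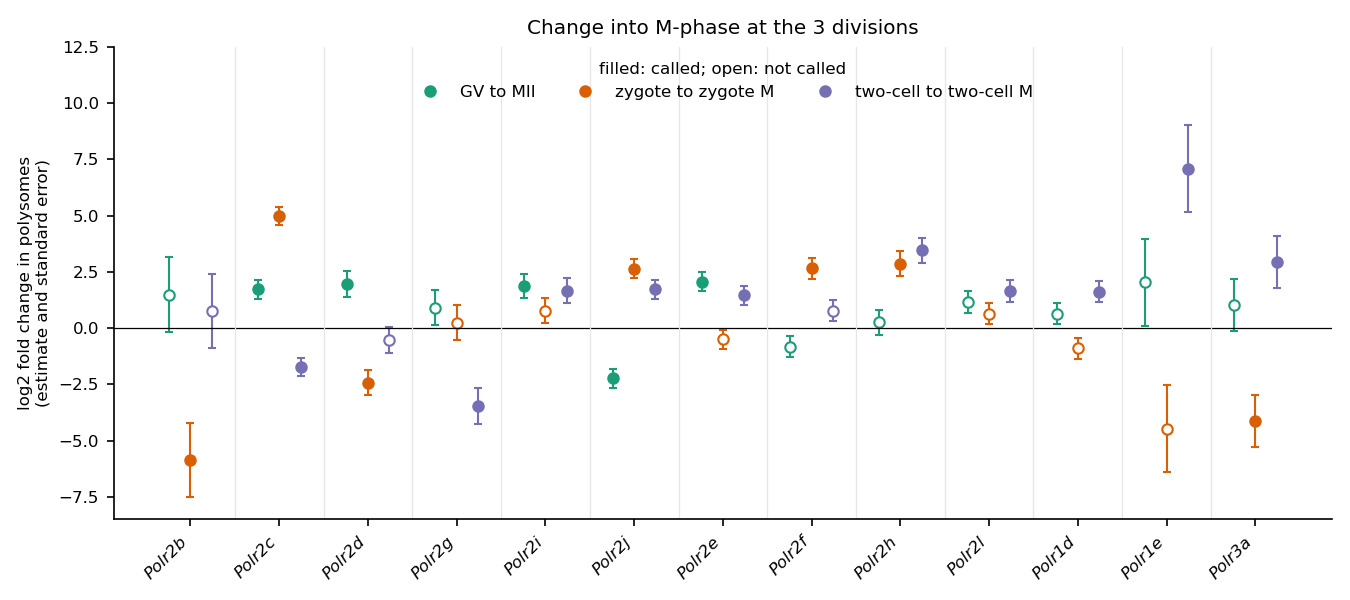
Log2 fold change in polysomes, with its standard error, of the 13 subunits called in at least 1 step. The divisions are GV to MII, zygote to zygote M and two-cell to two-cell M. Each compares 3 libraries with 3, and the error comes from the fit over all 36 libraries. Filled points were called and open points were not. Polr2j lies below 0 at the first division and above 0 at both mitoses, and Polr2e is called above 0 at the first and last.

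Oocyte and embryo stages in matched phases of the cycle were compared in the same fit, and these comparisons share libraries with the steps. In those of MII with zygote M and two-cell M, only the embryos had received nocodazole, so stage and drug cannot be told apart. GV oocytes had more polysome signal than zygotes for 5 subunits and less for 0, beside 5.61% of all genes called (3.88% and 1.73%). The 5 were Polr2c, Polr2f, Polr2h, Polr2i and Polr2j, with log2 fold changes from 1.88 to 3.96, the largest being that of Polr2j (SE 0.42, adjusted p = 4.28e-07). Against two-cell embryos GV oocytes were higher for 5 and lower for 1, Polr2c, beside 16.7% of all genes (12.3% and 4.39%). The other 5, with changes from 1.57 to 4.47, were Polr2d, Polr2i, Polr2j, Polr3a and Polr3d. MII was above zygote M for 7 subunits and below it for Polr2c, beside 12.4% of all genes (8.95% and 3.4%), with Polr2k at 5.72 ± 1.12 (adjusted p = 0.000668) and Polr2i at 3.41 ± 0.54 (adjusted p = 5.49e-05). Polr2k, the smallest shared subunit, fell from 1.69, 2.78 and 2.92 FPKM in MII to 0.0887, 0.105 and 0.01 in zygote M.

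MII and two-cell M differed for 8 subunits, 4 in each direction, beside 53% of all genes, of which 45.2% were higher in MII and 7.86% lower. Polr2c, Polr2d, Polr2g and Polr2i were higher in MII and Polr2f, Polr2h, Polr2j and Polr2l in two-cell M. The 4 higher in MII are all used by Pol II only, and 3 of the 4 higher in two-cell M are shared subunits, while Polr2j is used by Pol II only. Of the subunits tested 6 are used by Pol II only and 5 are shared by all 3 enzymes, and a difference between these classes was not tested. Over the 4 oocyte and embryo comparisons 27 changes were called, beside 21.9% of all gene and comparison pairs, 21 of them higher in the oocyte, and after quantile normalization 35, of which 20 were higher in the oocyte.

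The non-polysome fraction was sequenced in libraries of its own, made from the same gradients. From GV to MII 5 subunits were called, all higher, beside 16.6% of all genes (13.5% higher and 3.14% lower). From MII to the zygote 3 were called, all lower, beside 3.28% (1.33% and 1.95%). From zygote to zygote M 3 were higher and 4 lower, beside 10.4% (1.05% and 9.36%). From zygote M to the two-cell embryo 7 were called, all higher, beside 22.9% (9.82% and 13.1%), and in two-cell M 6 were higher and 2 lower, beside 36.1% (8.17% and 28%). Polr2i rose with MII here too, from 28.4, 24.8 and 25.9 FPKM to 245, 229 and 263 (3.22 ± 0.54, adjusted p = 0.000134), and then fell by 4.05 (SE 0.54, adjusted p = 2.71e-05) to 20.6, 10.5 and 15.1 in zygotes. Polr2f, Polr2h and Polr2c rose from zygote to zygote M in this fraction as well, by 1.61 ± 0.46, 1.80 ± 0.56 and 2.43 ± 0.40 (adjusted p = 0.0232, 0.0367 and 0.000173), and Polr2j had 1.22 ± 0.42 (adjusted p = 0.0644).

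In the step from zygote M to the two-cell embryo, where no polysome change was called, Polr1c rose by 6.12 ± 1.36 in the non-polysome fraction (adjusted p = 0.00138), from 1.75, 0.0244 and 3.5 FPKM to 60.6, 27.8 and 29.7. Polr2e rose by 2.63 ± 0.43 (adjusted p = 3.7e-05) and Polr2l by 2.44 ± 0.48 (adjusted p = 0.000343). Polr1d, Polr2h, Polr2i and Polr3k were the others called. The change in polysomes minus that in the non-polysome fraction was called by limma for 0 subunits in this step, with 5 at an unadjusted p under 0.05. In this fit the fractions are thus not shown to differ for any single subunit. The contrast had a median of -0.96 for the subunits and -0.02 for all genes, and with 1 added to each FPKM 2 subunits were called. Over all 5 steps that contrast was called once among 20 subunits, beside 1.8% of all gene and step pairs: the rise of Polr2c into zygote M was larger in polysomes by 2.58 ± 0.57 (adjusted p = 0.041). Both fractions come from the same gradients, and with the gradient as a replicate block this change had an adjusted p of 0.0917 and 0 subunits were called. Over the fits without 1 library the number of such calls ran from 0 to 4, and without Polr2c it was 0.

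Polysome and non-polysome levels were also compared within each stage. A subunit was called in 17 of the 120 subunit by stage pairs, 16 of them lower in polysomes, beside 6.64% of all gene and stage pairs. With the gradient as a replicate block 13 were called, 12 of them lower, and Polr2f in GV and zygotes and Polr2j and Polr3k in two-cell embryos were lost (adjusted p from 0.0525 to 0.0781). In GV 3 were lower, Polr2c, Polr2f and Polr2h, beside 4.96% of all genes called (2.61% higher and 2.35% lower), and the same 3 in zygotes, beside 1.38% (0.0377% and 1.34%). Polr2h was lower in polysomes in GV, zygote, two-cell and two-cell M, by 2.11 to 3.44 on the log2 scale, and Polr2f in GV, zygote and two-cell, by 1.62 to 2.10. In two-cell embryos 6 subunits were called, all lower beside 16.1% of all genes (9.69% higher and 6.38% lower), and the median log2 ratio of polysome to non-polysome was -1.37 for the subunits and 0.28 for all genes. Polr2e, for example, read 22.7, 29.3 and 27.9 FPKM in two-cell polysomes and 98.5, 129 and 77 in the non-polysome libraries. In MII and zygote M 0 subunits were called by limma (0.753% of all genes in MII, with 0.0502% higher and 0.703% lower, and 1.92% in zygote M, with 1.43% and 0.49%), with 4 and 2 at an unadjusted p under 0.05, all of them lower in polysomes. In two-cell M 4 were lower, Polr2d, Polr2e, Polr2h and Polr2m, and 1 higher, beside 14.8% (9.7% higher and 5.06% lower). The one higher in polysomes was Polr1e, at 5.75 ± 1.94 above the non-polysome fraction (adjusted p = 0.0439), where 2 of 3 non-polysome libraries lay at the floor. The counts by stage depend on the fit. With only the libraries compared they were 2 in GV, 5 in MII, 7 in zygotes, 0 in zygote M, 4 in two-cell embryos and 0 in two-cell M. After quantile normalization those of two-cell and two-cell M were 4 and 2, and with 1 added to each FPKM those of MII and zygote M were 2 and 1.

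Other genes of the 3 transcription systems were counted from a list of 71, of which 50 passed the minimum. The list held further Pol I and Pol III subunits and factors, Pol II general factors, elongation and termination factors, assembly chaperones and the mitochondrial polymerase. From GV to MII 4 were called higher and 0 lower, beside 6.11% of all genes called, and from MII to zygote 0 and 1, beside 4.57%. From zygote to zygote M they were 2 and 1, beside 5.75%, from zygote M to two-cell 1 and 0, beside 6.19%, and from two-cell to two-cell M 3 and 3, beside 36.3%. The largest called rise and fall of each step were as follows. Gpn1, a GTPase that takes part in the nuclear import of Pol II, rose by 5.10 ± 1.40 in MII (adjusted p = 0.0251). Ssu72, a phosphatase of the Pol II C-terminal domain, fell by 4.57 (SE 0.99, adjusted p = 0.00369) from MII to zygote and rose by 3.98 ± 0.99 in zygote M (adjusted p = 0.0108). Both Ssu72 steps rest on the same zygote libraries.

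In zygote M the general factor Gtf2f1 fell by 3.99 (SE 1.13, adjusted p = 0.0291). Supt4a, a subunit of an elongation factor, rose by 2.04 ± 0.51 in two-cell embryos (adjusted p = 0.0125). In two-cell M Gtf2h5, a subunit of the general factor that opens the promoter, rose by 2.49 ± 0.54 (adjusted p = 0.000661), and Pih1d1, part of a chaperone complex that assembles polymerases, fell by 5.99 (SE 2.03, adjusted p = 0.0223). Beside the 20 Polr subunits, with a median of 1.64 in that step, the 50 other genes had a median of 0.83.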

How the data were processed

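SSP-profiling libraries of mouse oocytes and embryos were made with SMART-seq v4, sequenced as 150-bp pairs, trimmed with Trim Galore 0.4.1 and aligned with STAR 2.5.3a to GRCm38 by the authors. The authors deposited one table of normalized FPKM values, with no counts, so depth is unknown and no counting interval can be given. Fragments are scaled to library and transcript length, with a smallest value of 0.01 in each library. Of 38 samples 2 are not analysed here, a zygote gradient of both fractions, because no column names them.

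Values were taken as log2(FPKM) with nothing added, and genes were kept where the geometric mean over the libraries reached 0.1 FPKM. One limma 3.58.1 fit (R 4.3.3) over 36 libraries held 12 group means, with an intensity trend. Adjusted p-values are from limma's moderated test, two-sided, Benjamini-Hochberg over 7967 genes within each comparison, and a call needs an adjusted p under 0.05 and a change over 2-fold. One subunit is counted with the others and not reported by name or drawn. Groups were taken from the sample titles. The script was tested on simulated data. Near copies were found with blast 2.17.0 against annotated transcripts (at least 90% identity over 200 bases). Values in every library are given for subunits called in a polysome step and for Polr2i, and of the other listed genes the largest called rise and fall of each step are named. The members and lists were chosen with earlier results of these data known. Alternatives were an added 0.1 or 1 FPKM, other minimums, quantile normalization, fewer libraries, a replicate block and leaving out each library.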

Additional observations from a re-analysis of the deposited data

Results flagged for a closer look

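The change into M-phase differed between divisions, by a contrast of changes in the limma fit (log2 scale, ± SE, Benjamini-Hochberg adjusted p), for the following subunits. Only the mitotic M-phase groups had received nocodazole, so in the contrasts with MII the division and the drug cannot be told apart. For the change to zygote M minus that to MII the values were 4.87 ± 0.60 for Polr2j (adjusted p = 1.54e-06), 3.48 ± 0.65 for Polr2f (0.000536), 3.28 ± 0.57 for Polr2c (0.000224) and 2.61 ± 0.79 for Polr2h (0.0323). They were negative for Polr2e at -2.56 (0.00549), Polr2d at -4.38 (0.000413), Polr3a at -5.16 (0.0409), Polr2k at -5.31 (0.03) and Polr2b at -7.34 (0.0445).

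For the change to two-cell M minus that to MII the values were 3.95 ± 0.60 for Polr2j (adjusted p = 2.08e-05) and 3.20 ± 0.79 for Polr2h (0.00353), against -2.49 for Polr2d (0.024), -3.44 for Polr2c (6.55e-05) and -4.39 for Polr2g (0.00462).

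For the change to two-cell M minus that to zygote M they were 11.56 ± 2.74 for Polr1e (adjusted p = 0.0029), 7.06 for Polr3a (0.00223), 6.61 for Polr2b (0.0397), 4.92 for Polr2k (0.024), 2.52 for Polr1d (0.00581) and 1.96 for Polr2e (0.019). The negative ones were Polr2f at -1.88 (0.0357), Polr2g at -3.72 (0.0161) and Polr2c at -6.72 (1.49e-09). The values of Polr1e, Polr2b, Polr2k and Polr3a rest on libraries near the floor of 0.01 FPKM, and reads of Polr2c and of its copy Gm11993 cannot be told apart.

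Between fractions, the change of Polr2c from zygote to zygote M was larger in polysomes by 2.58 ± 0.57 (adjusted p = 0.041), and was not called with the gradient as a replicate block (adjusted p = 0.0917).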

How the results depend on the processing

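Of the 28 changes called between polysome stages, 19 were called under every other setting that gave a value, 18 in every fit without 1 library, 16 in both, and 0 changed direction. The count from zygote M to two-cell, 0 as reported, was 1 with 0.1 added to each FPKM, with a mean of at least 1 FPKM, after quantile normalization or with libraries of the fraction only, 2 with 1 added and 3 with only the libraries compared. From GV to MII it was 3 with no minimum against 5 (2 to 6 without 1 library), and from MII to zygote 10 with only the libraries compared against 6 (4 to 6 without 1 library). Without 1 library it was 5 to 6 against 7 from zygote to zygote M and 8 to 10 against 10 from two-cell to two-cell M. The non-polysome steps gave 19 calls with libraries of that fraction only against 30 (21 to 35 without 1 library). The difference between fractions, called once, was called 3 times with 0.1 added, with no minimum or with a mean of at least 1 FPKM, 5 with 1 added, 4 after quantile normalization or with only the libraries compared, and 0 with the gradient as a replicate block or without Polr2c, the last chosen after seeing the data (0 to 4 without 1 library). The change of Polr2i from zygote M to two-cell, -0.02, became 0.11 after quantile normalization, and without 1 library ran from -0.36 to 0.41, above 0 without two-cell library C (0.41) or zygote M library B (0.05). The cause was not tested.

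Deviations of same-lettered libraries of different stages had a mean r of 0.0205 over 40 pairs (-0.0899 to 0.157). Both fractions of one gradient, which are paired, had a mean r of only 0.0756 over 18 pairs (-0.00625 to 0.167). The check therefore cannot decide whether the letters pair the samples. The replicate block took Polr2b and Polr3a in zygote M (adjusted p = 0.0844 and 0.101) and Polr3a in two-cell M (0.0556) past the threshold. Reads behind each FPKM are unknown, so how depth limits low subunits could not be measured.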
